A study of Homo sapiens with 4 samples.

Results

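This account covers 6 genes of the human POU family, POU3F1, POU3F2, POU3F3, POU4F1, POU4F2 and POU4F3, and the peaks of histone H3 trimethylated at lysine 27 (H3K27me3) around them. The peaks were those that overlapped 1 of 6 windows, given in kb of the human genome build hg19 and laid around the genes, of 42 to 45 kb each and 260 kb together. They were chr1:38490001-38532000 for POU3F1, chr6:99262001-99307000 for POU3F2, chr2:105452001-105494000 for POU3F3, chr13:79153001-79198000 for POU4F1, chr4:147540001-147584000 for POU4F2 and chr5:145698001-145740000 for POU4F3. All peaks so found lay wholly inside their window. The windows held 29 of the 8890 peaks of the DMSO list and 23 of the 13155 peaks of the AKBA list. The windows were selected on these peak lists, POU3F3 for holding the peak with the highest AKBA score, so scores and peaks are given as a description and no value is tested. HaCaT cells, an immortalised human keratinocyte line, were cultured for 12 hours with AKBA or with its solvent DMSO, and chromatin was immunoprecipitated with 1 antibody against H3K27me3. AKBA is an abbreviation the labels do not spell out, in common use for an acetylated boswellic acid of frankincense resin, and the labels state no dose. Each condition had 1 H3K27me3 library with a peak list, and 1 input DNA library with no values used here. No difference therefore has a replicate check, and the sequencing depth is unknown. A peak list holds no expression, so the keratinocyte label was not checked against marker genes.

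POU proteins are transcription factors that bind DNA through a POU-specific domain and a homeodomain. The POU3 members are best known from the brain, the peripheral nerve and the kidney, and the POU4 members from sensory neurons, the retina and the inner ear. H3K27me3 is the product of Polycomb repressive complex 2 and a mark of silenced genes. Developmental transcription factors with CpG-rich promoters are its classical targets, where it often forms domains far wider than a nucleosome.

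The promoters of 3 members are shown because they span the range of CpG content and belong to the window with the highest-scoring AKBA peak (POU3F3), the window with nearly equal coverage in both lists (POU4F1) and the window with the widest peak (POU4F3). Each is the stretch of 250 bases before the transcription start in the RefSeq table of build GRCh38.p14, at chr2:104853865-104854114 on the plus strand for POU3F3, chr13:78603553-78603802 on the minus strand for POU4F1 and chr5:146338589-146338838 on the plus strand for POU4F3. Capitals mark the CpG dinucleotides. The positions are those of GRCh38.p14 and were not set against the hg19 peaks.
POU3F3: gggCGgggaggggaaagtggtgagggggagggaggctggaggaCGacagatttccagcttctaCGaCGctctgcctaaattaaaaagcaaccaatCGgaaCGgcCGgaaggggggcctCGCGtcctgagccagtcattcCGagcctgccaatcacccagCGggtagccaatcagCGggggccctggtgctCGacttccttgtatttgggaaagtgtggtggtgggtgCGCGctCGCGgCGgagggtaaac
POU4F1: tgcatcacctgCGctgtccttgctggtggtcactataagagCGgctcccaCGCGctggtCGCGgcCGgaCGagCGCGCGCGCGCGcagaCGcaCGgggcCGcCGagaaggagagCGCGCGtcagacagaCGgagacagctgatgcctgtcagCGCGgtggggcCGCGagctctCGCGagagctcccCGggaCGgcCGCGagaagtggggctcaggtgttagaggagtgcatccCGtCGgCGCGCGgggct
POU4F3: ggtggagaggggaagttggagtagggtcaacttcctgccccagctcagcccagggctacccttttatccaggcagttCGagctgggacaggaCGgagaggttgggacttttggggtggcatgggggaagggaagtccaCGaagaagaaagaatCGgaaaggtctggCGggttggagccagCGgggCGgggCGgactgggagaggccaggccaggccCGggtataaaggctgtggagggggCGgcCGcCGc

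All 6 members were found in the table of 35116 promoters, and all had more CpG dinucleotides in these 250 bases than the median promoter, which had 11. POU4F1 had 37 and POU3F1 had 36, and 4.85% of all promoters had at least 36. POU4F2 had 26, POU3F2 had 22 and POU3F3 had 18. POU4F3 had the fewest, 12, which 48.5% of promoters reached. The observed over expected CpG ratio ran from 0.529 at POU4F3 to 1.19 at POU4F1, and the share of G and C from 62.0% at POU3F3 to 80.8% at POU3F1. The promoters of the POU3 and the POU4 members differed in 2 short motifs, which were searched on both strands after the sequences had been seen. CCAAT was present at POU3F1 (3 matches), POU3F2 (2) and POU3F3 (3) and at no POU4 member, and 32.0% of all promoters held it. TATAA was present once at each POU4 member and at no POU3 member, against 18.9% of all promoters. The TATAA match began 30 bases before the start at POU4F2 and POU4F3 and 217 bases before it at POU4F1. The octamer ATGCAAAT, the classical binding motif of POU factors, was in none of the 6 stretches and in 1.63% of all promoters.

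**Figure D1:**
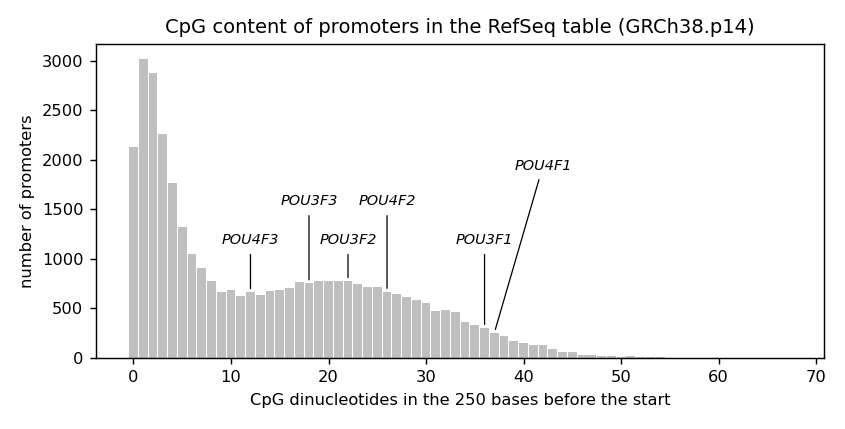
The bars give the number of promoters (vertical axis) by the number of CpG dinucleotides in the 250 bases before the start (horizontal axis) for 35116 RefSeq promoters, and lines mark the 6 members. The members lie between 12 and 37, to the right of the median of 11.

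Across the 6 windows, fewer peaks covered more sequence in the AKBA list than in the DMSO list. Peaks covered 41.4 kb (15.9% of the windows) with DMSO and 62.4 kb (24.0%) with AKBA, a ratio of 1.51, against 1.94 over the whole lists. The AKBA list nevertheless held 23 peaks here against 29, a ratio of 0.793, while over the whole lists it was 1.48. Only POU3F3 (5 AKBA peaks against 9) and POU4F3 (2 against 6) had fewer AKBA than DMSO peaks. The numbers were equal in 3 windows, and POU3F2 had more AKBA peaks (8 against 6). Among peaks of at least 1 kb the AKBA list held 14 and the DMSO list 13, and among narrower peaks 9 and 16. A peak in the windows was 2713 bp wide on average with AKBA and 1426 bp with DMSO. Over all peaks the means were 1114 and 851 bp. All 6 windows held peaks of both lists, as did 47.4% of the tiles of 43 kb, laid end to end over the genome, that hold a peak of either list. The windows were selected on these lists, so this count is not a result about them. AKBA peaks covered more bases than DMSO peaks in 6 of 6 windows. The same held for 77.0% of these 9226 tiles, and for 80.2% of the 4370 tiles that hold peaks of both.

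**Figure D2:**
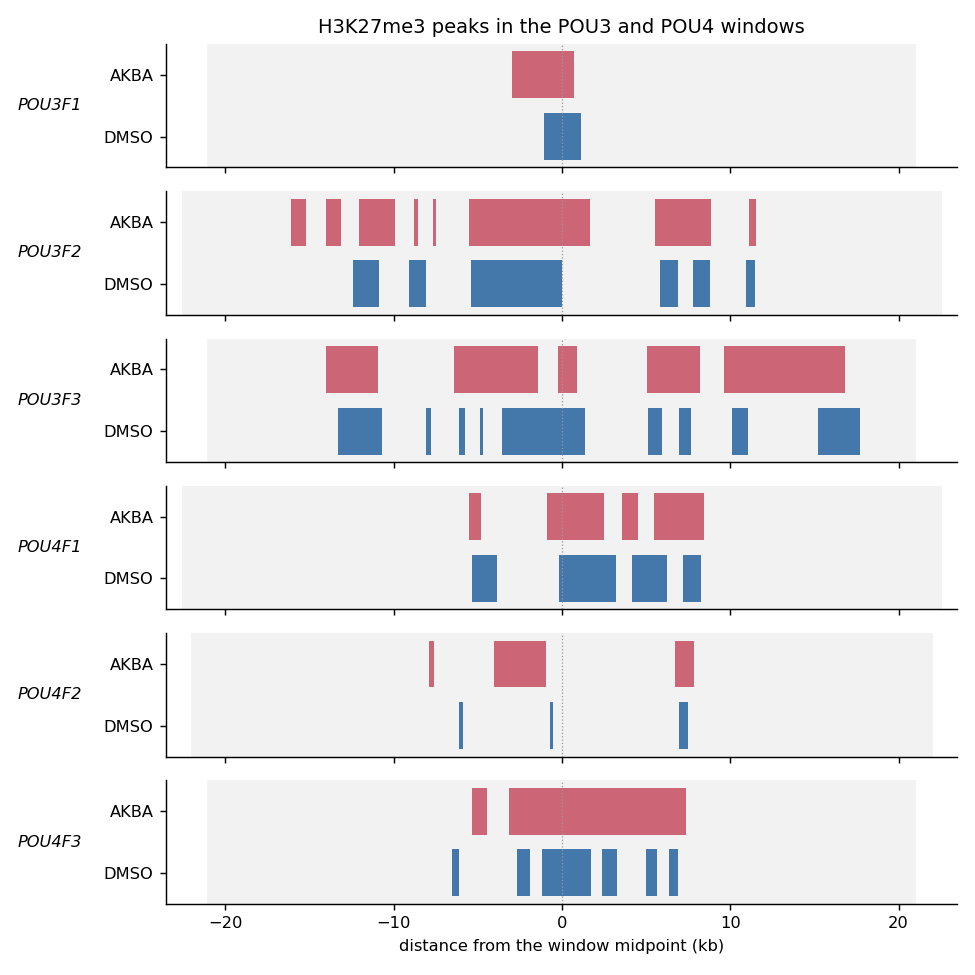
Peaks of the DMSO list (lower row, blue) and the AKBA list (upper row, red) are drawn to scale for each window by distance from its midpoint in kb (horizontal axis), with the window in grey. POU3F1 has 1 peak in each list, while POU4F3 has 6 DMSO peaks and 2 AKBA peaks.

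**Figure D3:**
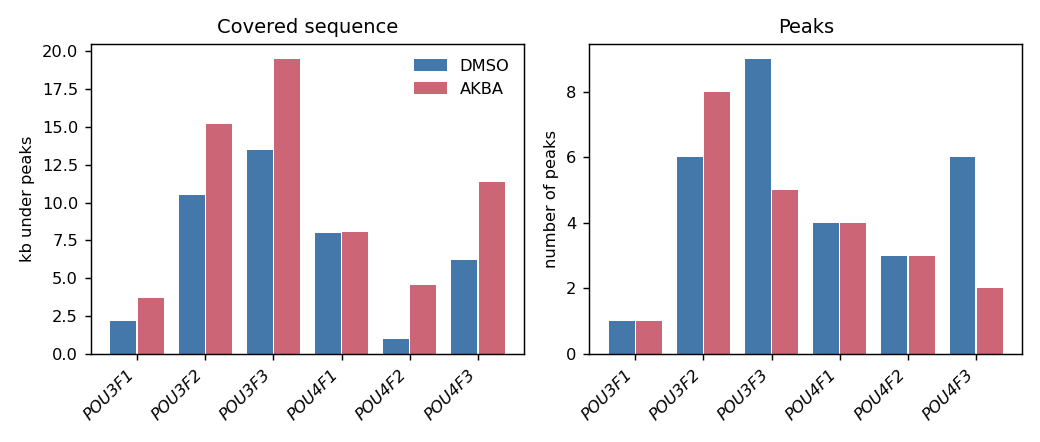
Bars give the kb under peaks (left) and the number of peaks (right) in each window for the DMSO and the AKBA library, 1 library each and hence without error bars. AKBA bars are higher for covered sequence in all windows, by 0.095 kb at POU4F1 and 6.03 kb at POU3F3, whereas peak numbers are lower with AKBA at POU3F3 and POU4F3.

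Most of the marked places were the same in both lists. Of the DMSO peaks in the windows 25 of 29 (86.2%, exact 95% Clopper-Pearson interval 68.3 to 96.1%) shared 1 or more bases with an AKBA peak, against 54.5% of the whole DMSO list. Of the AKBA peaks 17 of 23 (73.9%, interval 51.6 to 89.8%) overlapped a DMSO peak, against 32.2% of the whole AKBA list. The intervals cover counting error only and treat the peaks of a window as independent. Because the windows were selected on these lists, the shares only describe the selected peaks, and their difference from the whole lists was not tested. Peaks in the windows were also wider than those of the whole lists. Mean widths were 1426 against 851 bp for DMSO and 2713 against 1114 bp for AKBA. The shares were not compared at equal width. Bases under peaks of both lists came to 33.2 kb, which made up 80.2% of what DMSO peaks covered in the windows and 53.1% of what AKBA peaks covered. Over the whole lists these shares were 64.2% and 33.2%. With a reciprocal overlap of at least 50% the shares of peaks in the windows were 17.2% for DMSO and 21.7% for AKBA.

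POU3F1, a factor known from myelinating Schwann cells and from the epidermis, had the simplest pattern of the 6 members. The only DMSO peak of its window, chr1:38509969-38512147, measured 2179 bp with a score of 4.70. The only AKBA peak, chr1:38508014-38511743, measured 3730 bp with a score of 7.45. The peaks shared 1775 bp, which was 81.5% of the DMSO peak and 47.6% of the AKBA peak. On the side of lower coordinates the AKBA peak began 2.99 kb from the window midpoint and the DMSO peak 1.03 kb from it. On the other side the AKBA peak ended sooner, 0.743 kb past the midpoint against 1.15 kb. UTP11 and the lncRNA MIR3659HG are the next genes in the gene table of GRCh38.p14. Both lie near the gene there, so peaks of the window cannot be given to POU3F1 alone.

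POU3F2, a neuronal factor also known from melanocytes and melanoma, had 6 DMSO peaks and 8 AKBA peaks and was the only window with more AKBA than DMSO peaks. Covered sequence came to 10.5 kb with DMSO and 15.2 kb with AKBA, a difference of 4.67 kb that was 9.50 kb after joining over gaps of 5 kb or less. The widest peak was central in both lists. It ran over chr6:99279104-99284534 in the DMSO list, 5431 bp with a score of 5.46, and was the only DMSO peak over 5 kb in the 6 windows. The AKBA peak there, chr6:99278988-99286176, contained it whole and measured 7189 bp with a score of 7.65. Its start lay 116 bp from the DMSO start, so the greater width was nearly all at the end with the higher coordinates. All 6 DMSO peaks overlapped an AKBA peak, and 3 AKBA peaks had no DMSO counterpart. These were chr6:99268413-99269310 (898 bp, score 2.29), chr6:99270504-99271383 (880 bp, score 2.63) and chr6:99276822-99277035 (214 bp, score 4.04). The first 2 of them carried marked sequence to 16.1 kb before the midpoint, against 12.4 kb in the DMSO list. The neighbours of the gene in the table are the lncRNAs PNKY and LOC124901364. Both lie near it, so peaks of the window cannot be given to POU3F2 alone.

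POU3F3, a paralogue of POU3F2 known from the cortex and the kidney, had the most covered sequence of the 6 windows in both lists. It amounted to 13.5 kb (32.0% of the window) with DMSO and 19.5 kb (46.4%) with AKBA. The DMSO list held 9 peaks there and the AKBA list 5. Each of the 5 AKBA peaks overlapped DMSO peaks, and 8 of the 9 DMSO peaks overlapped AKBA peaks. The exception, chr2:105464946-105465242, measured 297 bp with a score of 2.71. The widest DMSO peak, chr2:105469445-105474382, measured 4938 bp with a score of 5.29, the rank of 369 in its list. In the AKBA list this place was broken into 2 peaks, with a gap of 1184 bp between them that the DMSO peak spanned. The first was chr2:105466618-105471569, 4952 bp with a score of 7.34. The second was chr2:105472754-105473875, 1122 bp with a score of 14.3, rank 1 of 13155 and the peak for which the window was chosen. The highest DMSO score of the window was elsewhere, 6.65 at chr2:105478139-105478967, a peak of 829 bp with rank 76 of 8890. An AKBA peak of 3151 bp with a score of 7.61 contained it. The widest AKBA peak, chr2:105482658-105489805, measured 7148 bp with a score of 4.56 and crossed a gap of 4110 bp between 2 DMSO peaks. AKBA minus DMSO came to 6.03 kb, and to -0.202 kb after joining the peaks of each list over gaps of 5 kb or less. It was 2.13 kb with the window narrowed by 10 kb on each side and 9.42 kb among peaks of at least 1 kb. From the first to the last peak the marked stretch spanned 31.0 kb in the DMSO list and 30.8 kb in the AKBA list. The noncoding genes LINC01159 and DALIR and a protein-coding gene, LOC124908045, overlap POU3F3 in the table, so peaks of the window cannot be given to 1 gene.

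POU4F1, known from sensory ganglia and the brainstem, was covered almost equally in both lists. There were 4 peaks in each list, and 7.98 kb of DMSO and 8.07 kb of AKBA peaks. All 8 peaks overlapped a peak of the other list, yet the bases in common came to 5.44 kb, 68.2% of the DMSO sequence and 67.4% of the AKBA sequence. The widest and highest-scoring peaks were at the window midpoint. The DMSO peak chr13:79175345-79178709 measured 3365 bp with a score of 6.72 and rank 69, the highest DMSO score in the 6 windows. The AKBA peak chr13:79174628-79178017 measured 3390 bp with a score of 8.62 and rank 83. The AKBA peak began 717 bp before and ended 692 bp before the DMSO peak, so the widths were close and the positions offset. The difference of 0.095 kb had no stable direction. It was 1.58 kb among peaks with a score of at least 3 and 0.378 kb after joining over gaps of 5 kb or less. It was -1.58 kb among peaks of at least 1 kb, and -0.121 kb when DMSO peaks were joined and widened to the limits of the AKBA list, an alternative chosen after seeing the data. The lncRNAs OBI1-AS1 and LOC780529 overlap POU4F1 in the gene table, and the protein-coding gene OBI1 is a neighbour. Peaks of this window thus cannot be given to 1 gene.

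POU4F2, known from retinal ganglion cells, had the least covered sequence in the DMSO list, 0.983 kb in 3 peaks of 160 to 548 bp. The AKBA list also held 3 peaks, of 326 to 3092 bp and 4.57 kb together. DMSO peaks thus covered 2.23% of the window and AKBA peaks 10.4%, and the ratio of 4.65 was the greatest of the 6 windows. The difference of 3.59 kb was 7.14 kb after joining over gaps of 5 kb or less. Most of the excess was 1 peak, chr4:147557970-147561061, of 3092 bp with a score of 3.26 and rank 5343 of 13155. No DMSO peak overlapped it. The nearest, chr4:147561304-147561463, was 242 bp away, had the narrowest width of the DMSO list (160 bp) and a score of 3.70. A second pair without overlap lay farther out, the DMSO peak chr4:147555877-147556151 (275 bp, score 2.76) and the AKBA peak chr4:147554095-147554420 (326 bp, score 2.54). They were 1456 bp apart. The only shared place was the DMSO peak chr4:147568970-147569517 (548 bp, score 2.39), inside an AKBA peak of 1152 bp with a score of 4.52. POU4F2 was also the only window whose midpoint lay under no peak of either list.

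POU4F3, known from the hair cells of the inner ear and from inherited hearing loss, held the widest peak of the 6 windows. The AKBA peak chr5:145715879-145726348 measured 10470 bp, rank 28 by width among 13155, with a score of 5.06. It overlapped 5 DMSO peaks of 551 to 2924 bp, each of them whole, and these covered 55.5% of it. The widest, chr5:145717814-145720737, had a score of 4.80, and the highest-scoring, chr5:145725347-145725897, a score of 4.89. Of the 4 breaks between the 5 DMSO peaks, 3 measured 657 to 681 bp and 1 measured 1737 bp. The 3 shorter breaks are narrower than any gap between AKBA peaks, of which the smallest is 857 bp, whereas DMSO gaps go down to 641 bp. The window held 6.23 kb of DMSO and 11.3 kb of AKBA peaks, a difference of 5.11 kb. The difference was 3.10 kb after joining over gaps of 857 bp or less, and -0.738 kb after joining over gaps of 5 kb or less. That last setting joined the DMSO peak without a counterpart, chr5:145712459-145712884 (426 bp, score 2.45), to the others. It likewise joined the AKBA peak without a counterpart, chr5:145713648-145714525 (878 bp, score 2.78), to the widest peak across a gap of 1353 bp. These peaks without a counterpart lay 763 bp apart. RBM27-POU4F3, a readthrough gene, overlaps POU4F3 in the table, so here too the peaks cannot be given to 1 gene.

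Breaks in the DMSO list that 1 AKBA peak crossed were found in 4 of the windows. The DMSO peaks of the windows had 23 gaps between neighbours, and 10 of these lay wholly under 1 AKBA peak. POU3F3 and POU4F3 had 4 of them each, and POU3F2 and POU4F1 had 1 each. Over the whole DMSO list 19.6% of the gaps of up to 20 kb were crossed in this way. The DMSO gaps in the windows measured at most 7506 bp, so the gap lengths compared are unlike. No share over the whole list was computed for gaps of like length. Of the 10 crossed gaps 3, all at POU4F3, were shorter than the smallest AKBA gap of 857 bp, and the other 7 measured up to 4110 bp. In the reverse direction 2 of the 17 gaps between AKBA peaks, at POU3F3 and POU4F1, lay under 1 DMSO peak. Over the whole AKBA list 1.48% of the gaps of up to 20 kb did, while those in the windows measured at most 7660 bp. Counted by peaks, 6 of the 23 AKBA peaks overlapped at least 2 DMSO peaks, against 4.43% of the AKBA list. Of the 29 DMSO peaks, 2 overlapped at least 2 AKBA peaks, against 0.945% of the DMSO list. Peaks of these selected windows were wider on average than those of the whole lists. The counts were not compared at equal width. Where 1 DMSO peak met 1 AKBA peak and neither met another, in 9 pairs, the AKBA peak was wider in 6 and the DMSO peak in 3. Over both lists the AKBA peak was wider in 73.1% of 3510 such pairs, so the count in the windows is near the background. The width difference in the 9 pairs of the windows, AKBA minus DMSO, ran from -756 to 1758 bp with a median of 509 bp. Over the 3510 pairs of both lists the median was 404 bp. The narrowest peaks of the lists measured 160 bp (DMSO) and 214 bp (AKBA), a ratio of 1.34, and the part of this difference in the results was not tested beyond the settings given here.

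The peaks of the windows included some of the widest of both lists. Ranks are given as the share of a list that a peak's rank amounts to, so that a low share means a wide or high-scoring peak. The median rank by width was at 26.6% of the DMSO list and at 12.7% of the AKBA list. By score it was at 27.4% and 15.2%. The windows were selected on these lists, and the AKBA ranks include the peak for which POU3F3 was chosen. The ranks therefore only describe the selected peaks. In the widest 10% of their list were 8 of the 29 DMSO peaks and 11 of the 23 AKBA peaks, and in the highest-scoring 10% were 9 and 6. The windows had 1 DMSO peak of at least 5 kb, at POU3F2, and 3 such AKBA peaks, at POU3F2, POU3F3 and POU4F3. Such peaks made up 0.787% of the whole DMSO list and 1.84% of the whole AKBA list. Width and score did not go together for every peak. The AKBA peak of highest score, at POU3F3, ranked 3871 by width, and the widest AKBA peak, at POU4F3, ranked 1316 by score. The score is the authors' own value on a scale that the files do not name, so scores were ranked within a list and not subtracted between lists.

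**Figure D4:**
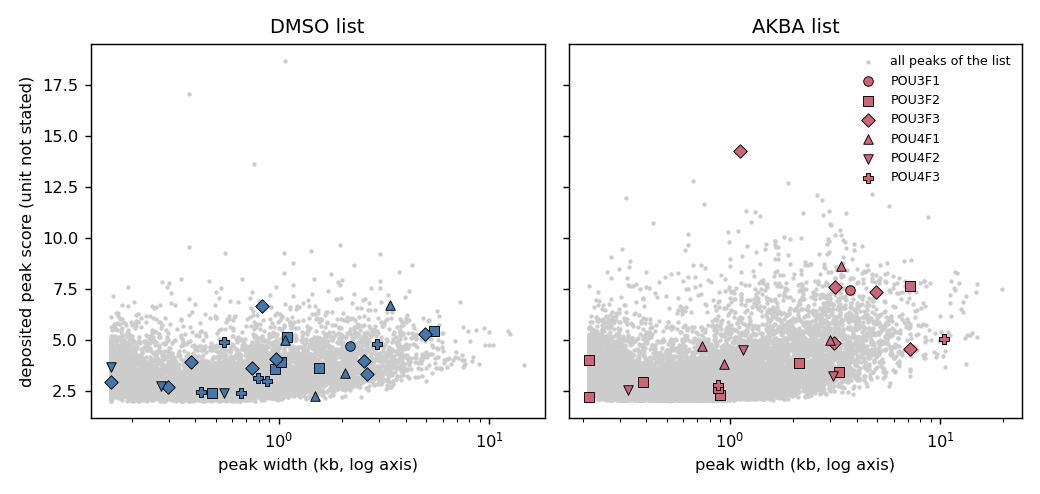
Each point is a peak, with its width in kb on a log axis (horizontal) and the deposited score (vertical), for the DMSO list (left) and the AKBA list (right). Grey points are all peaks of the list and symbols are the peaks of the 6 windows, with the POU3F3 peak of score 14.3 above all others in the AKBA list.

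On average over the windows, marked sequence was denser near the middle than farther out. The central 10 kb was covered to 37.3% by DMSO peaks and to 52.3% by AKBA peaks, and the rest to 9.50% and 15.6%. POU4F2 in the DMSO list went the other way, with 1.60% of the centre and 2.42% of the rest, and at POU3F3 AKBA coverage was nearly even, 46.9% and 46.3%. The midpoint lay under a peak of both lists in 5 windows, POU4F2 being the exception. In the central 10 kb the order of the lists was not the same everywhere. AKBA peaks covered more of it at POU4F3 (86.5% against 46.0%), POU3F2 (66.8% against 50.3%), POU3F1 (37.3% against 21.8%) and POU4F2 (30.9% against 1.60%). DMSO peaks covered more of it at POU3F3 (51.0% against 46.9%) and POU4F1 (53.1% against 45.5%). At POU3F3 the greater AKBA coverage therefore lay outside the centre, where AKBA peaks covered 46.3% and DMSO peaks 26.1%.

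Set beside tiles of 43 kb laid over the genome, 4 of the windows were among the most covered in both lists. As much coverage as at POU3F3 was found in 9 of the 9226 tiles with a peak (0.0976%) in the DMSO list and also in 9 in the AKBA list. As much as at POU3F2 was found in 39 tiles by DMSO coverage and 38 by AKBA coverage. The place in this order was lower in the AKBA list for POU4F1, with 81 tiles covered as much in the DMSO list and 223 in the AKBA list. For POU4F3 it was higher, with 120 and 78 tiles. POU3F1 stood at 984 tiles (10.7%) and 932 tiles (10.1%). POU4F2 was matched or passed by 2305 tiles in the DMSO list and 716 (7.76%) in the AKBA list. Windows are centred on genes and tiles are not, so tiles can divide a marked stretch that a window holds whole. The windows, unlike the tiles, were also selected on these peak lists, so their places in this order only describe them.

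**Figure D5:**
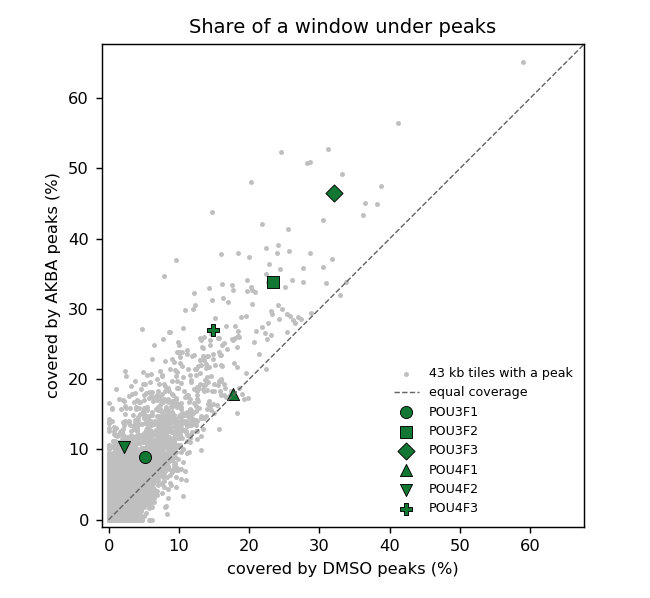
Each grey point is a 43 kb tile with a peak of either list, placed by the percentage covered by DMSO peaks (horizontal) and AKBA peaks (vertical), and the dashed line marks equal coverage. The 6 windows, in green, run from POU3F1 and POU4F2 at low coverage to POU3F3 at 32.0% and 46.4%, and POU4F1 lies on the line.

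Several of the marked stretches stood far from other peaks. The distance from the outermost peak of a window to the next peak of the same list beyond it was measured on both sides of the 6 windows. It was at least 200 kb on 10 of 12 sides in the DMSO list and on 8 of 12 sides in the AKBA list. Among all gaps of over 10 kb between neighbouring peaks, 42.0% were that long in the DMSO list and 31.7% in the AKBA list. These shares count each gap once, whereas a window edge falls more readily in a long gap than in a short one. The counts of sides and the shares are therefore unlike, and no share was computed for edges placed elsewhere in the genome. The median distance was 781 kb in the DMSO list and 261 kb in the AKBA list. POU4F1 had the longest, 5270 kb on the side of higher coordinates in the DMSO list, where the AKBA list had a peak after 63.4 kb. POU3F2 had 5142 kb in the DMSO list and 2803 kb in the AKBA list on the side of lower coordinates. POU3F3 had the shortest distances, 20.2 kb in the DMSO list and 11.02 kb in the AKBA list, on the side of higher coordinates. The first peaks past that edge of the window were chr2:105510921-105511553 in the DMSO list (633 bp, score 2.34) and chr2:105500830-105501492 in the AKBA list (663 bp, score 2.77). The last peaks inside that edge lay 3.28 and 4.20 kb from it, and both left-out peaks scored below the median of their list (3.02 in the DMSO list and 2.99 in the AKBA list).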

How the data were processed

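H3K27me3 ChIP-seq in HaCaT cells gave 1 peak list each for DMSO and AKBA. Coordinates are hg19, and BWA, STAR and MACS2 were used, per the submitters' processing notes, which give no version. How input DNA, thresholds and filters entered was not stated. The deposited lists have no header and hold position, name and 1 score for each peak. The unit of the score that the authors deposited is not stated, so it was used within each list only. Starts were read as counted from 0 and are printed 1-based.

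Peaks overlapping a window by at least 1 bp were taken with Python 3.11.15, numpy 2.4.6 and scipy 1.17.1, and figures were drawn with matplotlib 3.10.9. Overlap and coverage were tested on simulated data. Bases were clipped to the window. Coverage was also computed in 43 kb tiles, as background. Promoters came from the RefSeq table of GRCh38.p14, which also gave the names of neighbouring genes. No hg19 annotation was used, so the peaks were not placed in exons, introns or promoters, and the other POU genes, POU3F4 included, were not analysed here.

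The rule for named genes took the 6 genes of the windows. For each it named the widest and the highest-scoring peak of each list, and peaks without a counterpart where a window had 3 or fewer. The members and lists were chosen with earlier results of these data known. No test was made, since each condition has a lone library. Alternatives concerned score, width, list length, joining, overlap and window size.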

Additional observations from a re-analysis of the deposited data

How the results depend on the processing

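The ratio of covered bases over the 6 windows, 1.51, ran from 1.22 with peaks joined across gaps of up to 5 kb to 1.77 with peaks of at least 1 kb, and stayed above 1 under every setting run on it. Leaving out 1 window at a time, added after seeing the data, gave 1.43 (without POU4F2) to 1.63 (without POU4F1). The ratio of peak numbers, 0.793, was 1.08 among peaks of at least 1 kb, which leaves 14 AKBA and 13 DMSO peaks. It was below 1 under the other settings run on it, and windows were not left out for this ratio. The share of AKBA peaks overlapped by a DMSO peak was 21.7% at 50% reciprocal overlap, 91.3% when peaks within 1 kb counted as shared, and 100% with joining across 5 kb. For DMSO peaks the share was 17.2% at 50% reciprocal overlap. Shares over the whole lists were not computed at these settings. With joining across 5 kb, AKBA peaks covered more bases in 4 of 6 windows. AKBA minus DMSO bases was then -0.202 kb at POU3F3 and -0.738 kb at POU4F3, while it was 9.50 kb at POU3F2 and 7.14 kb at POU4F2, from 4.67 and 3.59 kb. At POU3F3 it was 2.13 kb with narrowed windows and 9.42 kb among peaks of at least 1 kb. At POU4F1 it was 1.58 kb with a score of at least 3, -1.58 kb among peaks of at least 1 kb, and -0.121 kb with DMSO peaks joined and widened by 54 bp to the limits of the AKBA list, a setting added after seeing the data. At POU3F2 it was 2.68 kb with the same number of highest-scoring peaks from each list, 2.78 kb with a score of at least 3 and 2.90 kb with narrowed windows. At POU4F3 it was 2.94 kb with DMSO peaks joined and widened, and 7.55 kb among peaks of at least 1 kb. The cause of these shifts was not tested. POU3F1, POU3F2 and POU4F2 kept more AKBA than DMSO bases under each of these settings. No paired analysis was possible because each condition has 1 library. Unknown depth limits every comparison, since a place outside a list may carry the mark below the threshold.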
